A study of Mus musculus with 12 samples.

Results

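Oxidative phosphorylation genes were chosen by symbol, as the genes whose array probe set carried a single symbol starting with Ndufa, Ndufb, Ndufc, Ndufs, Ndufv, Uqcr, Cox4, Cox5, Cox6, Cox7, Cox8 or Atp5, or equal to Sdha, Sdhb, Sdhc, Sdhd or Cyc1. Of 18193 genes with a single symbol, 91 met this rule. They comprised 83 subunits or subunit isoforms and 8 Ndufaf genes, which share the Ndufa prefix but encode assembly factors of complex I that are not part of the finished enzyme. Each gene was represented by its probe set with the highest mean log2(signal + 16), a measure that uses no group labels. A signal of 100 on at least 4 of 12 arrays was required for testing, and 83 of the 91 genes met it, among 10269 genes tested in all. The 83 were 34 genes of complex I, 4 of complex II, 9 of complex III, 11 of complex IV, 17 of complex V and the 8 assembly factors.

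The cells were endothelial cells of newborn wild-type mice, grown in DMEM with FCS, and each of 12 Affymetrix arrays was given about 5 micrograms of total RNA from 1 sample. The tmTNF group (4 arrays) carried, by stable transfection, a mutant of murine tumour necrosis factor that cannot be cleaved and so stays in the membrane, a chronic exposure. The soluble TNF group (4 arrays) received soluble TNF at 20 ng/ml for 4 h, an acute exposure, and the control group (4 arrays) was mock-transfected. The promoter of the construct, the number of clones and the origin of the replicates (cultures or animals) are not given in the sources used here. The tests below therefore rest on the spread among the arrays of a group. Whether that spread is one between animals or between cultures is not known, and marker signals differed widely within groups, as given below.

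Oxidative phosphorylation is the route by which mitochondria turn the energy of electrons from nutrients into ATP. Complex I (NADH dehydrogenase) and complex II (succinate dehydrogenase) pass electrons to ubiquinone, complex III hands them to cytochrome c, and complex IV passes them to oxygen. Complexes I, III and IV pump protons, and complex V, the ATP synthase, uses the returning protons to make ATP. Most subunits are encoded in the nucleus, as are all those described here, and the core subunits encoded by mitochondrial DNA are outside the symbol rule. Endothelial cells are known to draw much of their ATP from glycolysis, and their mitochondria are also known as a source of reactive oxygen under TNF.

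The number of probe sets at a signal of 100 or more was 18448 to 19224 on tmTNF arrays, 17698 to 18264 on soluble TNF arrays and 17937 to 18407 on control arrays. All 12 endothelial markers listed were among the genes tested, and their summed signal ran from 25261 to 122330 on tmTNF arrays, 30183 to 70306 on soluble TNF arrays and 13607 to 116660 on control arrays. On tmTNF replicates 2 and 4 and control replicate 3 that sum was 25261, 26582 and 13607, the 3 lowest of the series, and the mesothelial marker Aldh1a1 reached 3840, 4872 and 5067 there, against at most 132 on the other 9 arrays. The 7 mesothelial markers summed to 255 to 17873 on tmTNF arrays, 468 to 4543 on soluble TNF arrays and 399 to 15717 on control arrays, with 0 to 3, 1 to 2 and 1 to 3 of them at a signal of 100, and Upk3b and Wt1 were under 100 on all 12 arrays. Of 6 leukocyte markers, Ptprc stayed at or under 38.8 on all arrays, while Cd68 gave 63.3 to 6728 on tmTNF arrays, 150 to 232 on soluble TNF arrays and 255 to 18210 on control arrays. The 7 smooth muscle and pericyte markers summed to 292 to 485 on tmTNF arrays, 892 to 1839 on soluble TNF arrays and 213 to 1179 on control arrays, so tmTNF and soluble TNF did not overlap. Most of the sum on soluble TNF arrays was Acta2, and on control replicate 2 none of the 7 reached a signal of 100. The 10 fibroblast markers summed to 353 to 8512 on tmTNF arrays, 231 to 8182 on soluble TNF arrays and 308 to 10054 on control arrays. The 4 adipocyte markers, nearly all Fabp4 where the sum was high, summed to 8897 to 27358 on tmTNF, 4928 to 9461 on soluble TNF and 202 to 33048 on control arrays. On every array only 1 of these 4 reached a signal of 100. The Y-linked genes Eif2s3y, Kdm5d and Uty gave 219 to 1683 on tmTNF arrays, 0.753 to 25.8 on soluble TNF arrays and 0.502 to 39.5 on control arrays, so this difference ran alongside every tmTNF comparison. Whether these differences had a part in the results was not tested.

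Most oxidative phosphorylation genes had a lower signal in tmTNF than in soluble TNF cells, with controls between them by the medians, but 1 gene alone passed the test. Between tmTNF and soluble TNF, 66 of the 83 genes were lower and 17 higher, with a median log2 difference of -0.21, against a median of 0.08 over all 10269 genes. Between tmTNF and control, 64 were lower and 19 higher (median -0.08, against 0.03 over all genes). Between soluble TNF and control, 55 were higher and 28 lower (median 0.11, against -0.05 over all genes). The ratio of the 3′ to the 5′ probe set of Actb, a sign of RNA quality, was 1.12 to 1.29 on tmTNF arrays, 1.10 to 1.16 on soluble TNF arrays and 1.19 to 1.29 on control arrays, so it separated soluble TNF from control without overlap, and its part in that comparison was not tested. The same ratio of Gapdh overlapped between all groups. These 3 comparisons share arrays and do not stand apart from each other. In bulk RNA, fewer cells of a type and less RNA per cell cannot be told apart.

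The same shift was present in other strongly expressed genes. The 682 tested genes whose mean level lay within the middle range of the 83 (a mean log2 of 12.12 to 13.28, these genes included) had median differences of -0.21 between tmTNF and soluble TNF, -0.07 between tmTNF and control and 0.12 between soluble TNF and control. Of the 83 oxidative phosphorylation genes, 79.5% were lower in tmTNF than in soluble TNF, against 68.8% of those 682. The size of the shift depended on the scaling, though not its sign. Between tmTNF and soluble TNF, the median of the 83 minus that of all genes was -0.29 on the main scaling, -0.14 after quantile normalization and -0.30 with arrays scaled to the same median, which moved the median of all genes to -0.15. Between tmTNF and control this gap was -0.11 on the main scaling and -0.04 after quantile normalization, and between soluble TNF and control it was 0.16 and 0.06.

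**Figure D1:**
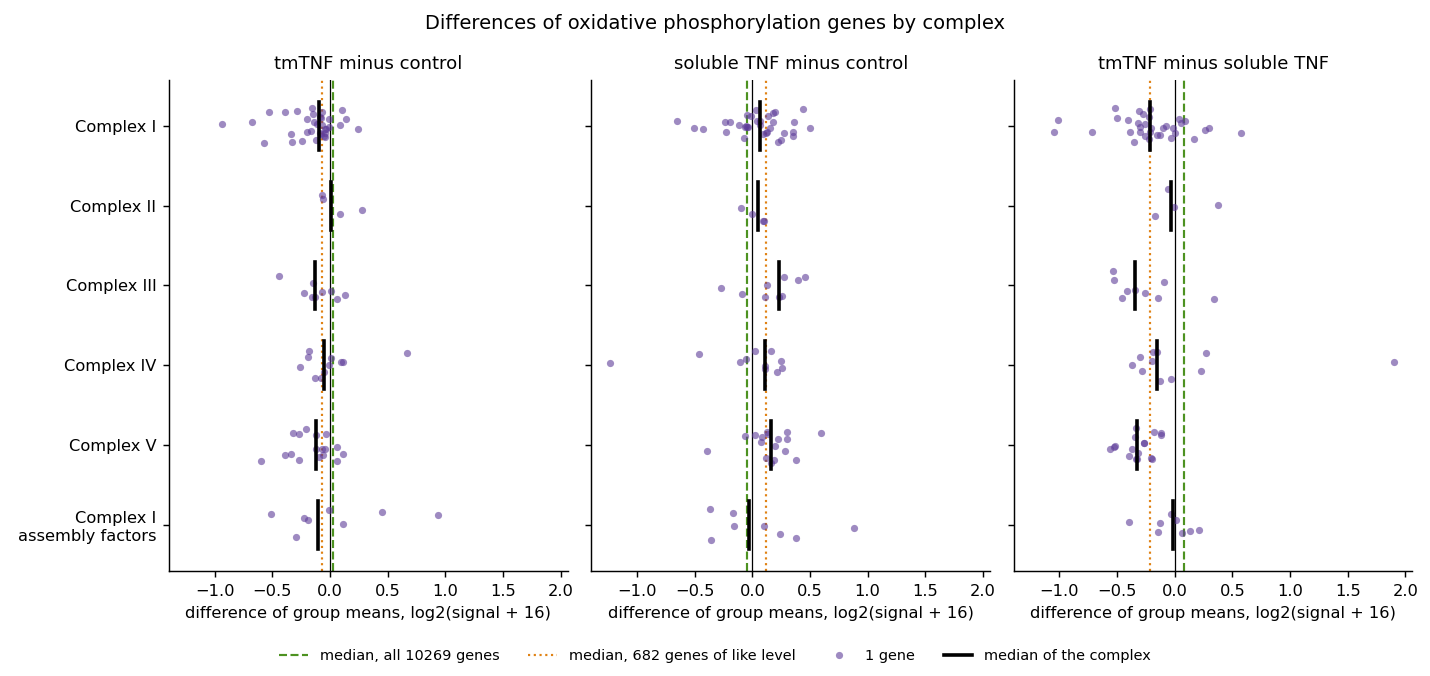
Difference of group means on the log2(signal + 16) scale for the 83 tested genes (points), by complex, in tmTNF minus control, soluble TNF minus control and tmTNF minus soluble TNF. Black bars are the complex medians, the dashed line is the median of all 10269 genes and the dotted line that of the 682 genes of like level to the 83 as a whole. Most complex V genes lie above that level. All 17 complex V points lie left of 0 in tmTNF minus soluble TNF, with a median of -0.33.

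With limma and Benjamini-Hochberg adjustment over all 10269 genes, 1 gene, Ndufb8, was called lower and 0 higher in tmTNF than in soluble TNF at an adjusted p under 0.05, where 0.263% of all genes were called lower and 0.954% higher. For tmTNF against control, limma called 0 of the 83 lower and 0 higher, where 0.00974% of all genes were called lower and 0.185% higher. For soluble TNF against control, limma called 0 higher and 0 lower, where 0.039% of all genes were called higher and 0% lower.

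At an unadjusted p under 0.05, 15 of the 83 genes (18.1%) were lower and 1 (1.2%) higher in tmTNF than in soluble TNF, against 7.49% and 12.4% of all genes. Between tmTNF and control, 3 (3.61%) were lower and 1 (1.2%) higher, against 2.75% and 4.81% of all genes. Between soluble TNF and control, 7 (8.43%) were higher and 1 (1.2%) lower, against 5.4% and 7.28% of all genes.

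The 4 arrays of each group did not overlap for 9 genes lower (10.8%) and 2 higher (2.41%) in tmTNF than in soluble TNF, against 5.86% and 10.3% of all genes. The 9 were Ndufb7, Ndufb8, Ndufs8, Uqcr11, Uqcrc1, Uqcrfs1, Atp5g1, Atp5g2 and Atp5pb, and the 2 were Ndufa6 and Cox6a2. Of the 7 arrays on which Cox6a2 reached 100, 4 were tmTNF arrays, so it passed the filter only through the group where it was high. Between tmTNF and control, Ndufb8, Ndufs8 and Ndufv1 (3.61%) lay wholly lower and 0 wholly higher, against 0.984% and 2.19% of all genes. Between soluble TNF and control, 7 genes (8.43%) lay wholly higher and 0 wholly lower, against 3.67% and 4.44% of all genes. They were Uqcrc1, Uqcrfs1, Cox6c, Atp5b, Atp5d, Atp5g1 and Atp5pb.

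The replicate spread of these genes was small for the array. The median standard deviation within groups was 0.264 on the log2 scale, against 0.448 over all genes tested and 0.341 over the 682 genes of like level. Atp5pb, a subunit of the peripheral stalk of the ATP synthase, had the smallest (0.0897) and Cox6a2, a muscle isoform, the largest (1.46). Over all 12 arrays, the highest signal of Ndufb5 was 1.23 times its lowest. At the other end stood Ndufa3 with 5.06 times, Atp5md with 5.27 times and Cox6a2 with 86.1 times. Of the 83 genes, 51 had their lowest signal on a tmTNF array, 9 on a soluble TNF array and 23 on a control array. Within tmTNF these lowest signals were on replicates 2, 3 and 4 (20, 18 and 12 genes), and on replicate 1 for 1 gene. The counts of lowest signals were not taken over all genes, so no share stands beside them. Of the 682 genes of like level, 68.8% were also lower in tmTNF than in soluble TNF.

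Array by array, the mean log2 level of the 17 complex V genes was 13.45, 12.94, 13.07 and 13.12 on tmTNF arrays, 13.52, 13.51, 13.26 and 13.57 on soluble TNF arrays, and 13.14, 13.44, 13.16 and 13.47 on control arrays. The tmTNF arrays other than replicate 1 lay below all 8 other arrays, and tmTNF replicate 1 lay above soluble TNF replicate 3. For the 34 complex I genes the means were 12.46, 12.14, 12.15 and 12.20 on tmTNF arrays, 12.45, 12.53, 12.40 and 12.41 on soluble TNF arrays, and 12.42, 12.48, 12.34 and 12.38 on control arrays, with the same 3 tmTNF arrays lowest. In every complex, the means of the 3 groups overlapped. In complex III, tmTNF replicate 1 (12.90) lay above soluble TNF replicate 4 (12.83). The median log2 level of the 11 complex IV genes was 13.96, 13.52, 13.66 and 13.69 on tmTNF arrays. It was 13.81, 13.99, 13.90 and 13.83 on soluble TNF arrays, and 13.55, 14.01, 13.65 and 13.71 on control arrays.

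**Figure D2:**
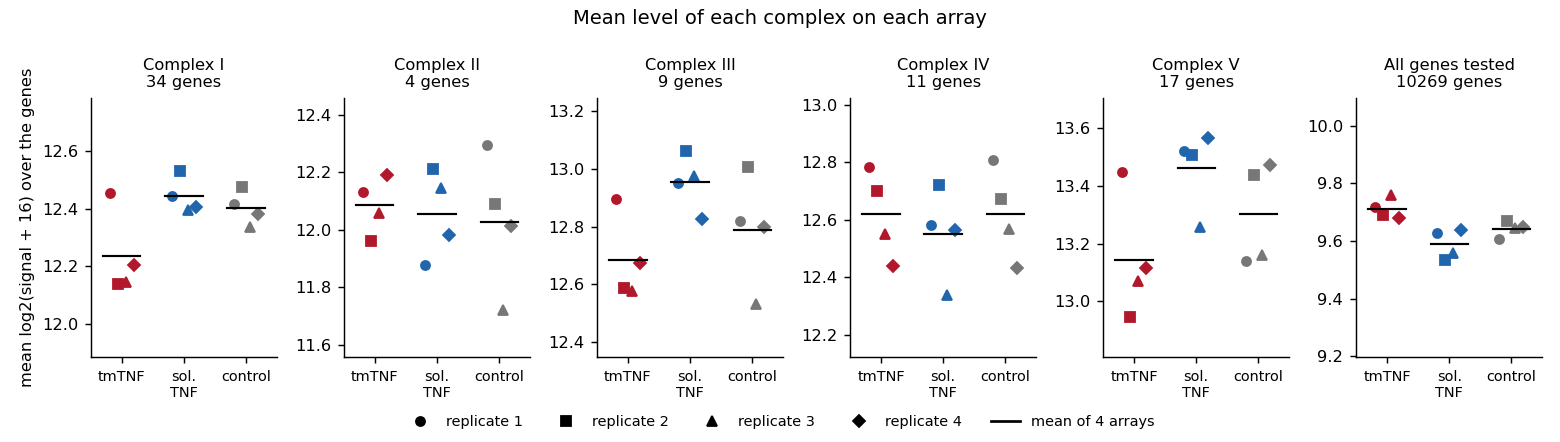
Mean log2(signal + 16) of the tested genes of each complex, and of all 10269 genes, on each array, for tmTNF, soluble TNF (sol. TNF) and control; marker shapes are the replicates, bars the means of 4 arrays, and every panel spans the same log2 range. In complexes I and V tmTNF replicates 2, 3 and 4 lie lowest, and in complex V they run from 12.94 to 13.12.

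The promoters of the 7 genes with an unadjusted p under 0.01 in any comparison are shown as those of the single genes on which the results below turn. Promoter windows from RefSeq (GRCm38.p6, 250 bases before to 50 after the annotated start) matched 74 of the 91 genes by symbol. The windows were searched on both strands for GCATGCGC, the core letters of the site of nuclear respiratory factor 1 (NRF1), for CCGGAAGT, the core of ETS-family sites including that of GABPA, and for AAGATGGC, the core of the YY1 site. All 3 factors are known regulators of respiratory chain genes. GCATGCGC overlaps its own reverse strand in the longer word GCGCATGCGC, which was counted as 1 site. Below, 120 bases before and 10 after the start are given 5′ to 3′ on the strand of the gene, in lower case with motif letters in capitals.
Ndufb8: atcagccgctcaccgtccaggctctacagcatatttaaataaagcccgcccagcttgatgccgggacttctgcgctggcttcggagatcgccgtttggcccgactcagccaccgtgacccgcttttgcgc
Ndufs8: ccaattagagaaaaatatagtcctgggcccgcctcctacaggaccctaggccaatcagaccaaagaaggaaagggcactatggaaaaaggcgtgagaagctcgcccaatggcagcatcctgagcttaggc
Ndufa6: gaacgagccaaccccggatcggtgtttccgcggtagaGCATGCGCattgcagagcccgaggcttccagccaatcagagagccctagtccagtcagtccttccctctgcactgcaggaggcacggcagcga
Ndufaf4: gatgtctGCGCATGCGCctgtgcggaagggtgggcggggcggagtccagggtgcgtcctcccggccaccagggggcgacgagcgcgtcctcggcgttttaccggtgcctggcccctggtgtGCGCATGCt
Uqcrfs1: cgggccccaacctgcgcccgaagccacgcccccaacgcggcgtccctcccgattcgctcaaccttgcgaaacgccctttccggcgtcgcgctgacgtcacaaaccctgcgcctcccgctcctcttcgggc
Uqcrc1: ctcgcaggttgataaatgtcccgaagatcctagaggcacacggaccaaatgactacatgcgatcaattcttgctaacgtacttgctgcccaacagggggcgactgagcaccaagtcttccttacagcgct
Atp5pb: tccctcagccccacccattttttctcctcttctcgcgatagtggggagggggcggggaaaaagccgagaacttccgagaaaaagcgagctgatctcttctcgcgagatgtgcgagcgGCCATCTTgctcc
The windows were chr19:44555433-44555562 for Ndufb8, chr19:3912765-3912894 for Ndufs8, chr15:82354282-82354411 for Ndufa6, chr4:24897963-24898092 for Ndufaf4, chr13:30545307-30545436 for Uqcrfs1, chr9:108936528-108936657 for Uqcrc1 and chr3:105959254-105959383 for Atp5pb, in GRCm38.p6. Ndufaf4 and Uqcrc1 lie on the plus strand and the other 5 on the minus strand.

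Of the 7, Ndufa6 and Ndufaf4 held the NRF1 letters before the start, from positions -83 and -113, and Ndufaf4 held them again just after the start. Atp5pb held the YY1 letters on the reverse strand, across the start itself. In Ndufs8 and Uqcrfs1 none of the 3 words was in the window. Ndufb8 (YY1 letters) and Uqcrc1 (NRF1 letters) had matches further after the start, at positions 39 to 46 and 31 to 40, at chr19:44555393-44555414 and chr9:108936668-108936697.
Ndufb8 after the start: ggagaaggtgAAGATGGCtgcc
Uqcrc1 after the start: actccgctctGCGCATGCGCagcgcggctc
These matches are letters in a window and do not show that a factor binds.

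Over the 74 matched genes, 11 (14.9%) held the NRF1 letters, against 6.41% of the 8390 tested genes with a window and 3.05% of all 27025 genes in the table. The YY1 letters were in 10 (13.5%), against 5.66% and 3.19%. The ETS letters were in 5 (6.76%), against 9.96% and 4.31%. At least 1 of the 3 words was in 25 of the 74. Besides Ndufa6, Ndufaf4 and Uqcrc1, the NRF1 letters were in Atp5g2, Atp5k, Atp5l, Cox6a1, Ndufa8, Ndufaf5, Sdhb and Uqcr11, which span complexes I to V. In 8 of the 10 genes with the YY1 letters (Ndufa3, Ndufa9, Ndufb8, Ndufc1, Ndufs4, Ndufs7, Ndufaf8 and Atp5j2) they began 11 to 39 bases after the start, on the strand of the gene. The word holds ATG, and start codons were not set apart. After the start, 0.851% of all plus-strand windows held it on the strand of the gene and 0.254% on the other (0.878% and 0.289% of minus-strand windows). The ETS letters were in Ndufs3, Uqcr11, Uqcrh, Cox8a and Atp5h.

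In complex I, Ndufb8, an accessory subunit of the membrane arm, fell in tmTNF relative to soluble TNF. It gave signals of 4505, 2779, 3110.1 and 4042 on tmTNF arrays, 6774, 7731, 6185 and 8155 on soluble TNF arrays and 5160.3, 5317, 4576 and 6196 on control arrays. Every tmTNF array lay below every control array and every soluble TNF array, while soluble TNF replicate 3 lay just below control replicate 4. The mean was 3609 ± 802 in tmTNF cells, against 7211 ± 896 under soluble TNF (mean signal ± SD, n = 4 each), 2.02-fold lower in tmTNF (log2 -1.01 ± 0.18, SE, limma adjusted p = 0.0248). Against control the log2 difference was -0.57 ± 0.18 in tmTNF (adjusted p = 0.397) and 0.44 ± 0.18 in soluble TNF (adjusted p = 0.365), and neither passed.

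The Ndufb8 call was narrow. Leaving out tmTNF replicate 2 or 3, or soluble TNF replicate 1, 2 or 4, gave adjusted p-values of 0.0731 to 0.0963 with the log2 difference at -0.90 to -1.04, and leaving out control replicate 3 with tmTNF replicates 2 and 4 gave 0.066 (log2 -0.93). A dimmer Ndufb8 probe set, at 109 to 320 on all arrays, had a log2 difference of 0.09 ± 0.31, and the mean of both sets gave an adjusted p of 0.259.

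Ndufs8, an iron-sulfur subunit of the electron path in complex I, came next. Its signals were 7532, 5925, 7217 and 6163 on tmTNF arrays, 10220, 12550, 8982 and 12730 on soluble TNF arrays and 9339, 12889, 8335 and 12925 on control arrays. All tmTNF arrays lay below all others, and the soluble TNF and control arrays overlapped. The log2 difference was -0.72 ± 0.18 against soluble TNF (adjusted p = 0.071) and -0.68 ± 0.18 against control (adjusted p = 0.245), which did not pass. Of 6 Ndufs8 probe sets, 5 gave a negative difference between tmTNF and soluble TNF, from -0.58 to -0.73, and the dim sixth gave 0.39.

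Ndufa3, a small accessory subunit, had uneven tmTNF replicates. Its signals were 11655, 2402, 7250.0 and 2679.5 on tmTNF arrays, 10943, 10189, 9736 and 9284 on soluble TNF arrays and 6833, 12157, 8781 and 10049 on control arrays. Replicates 2 and 4 of tmTNF were low, and replicate 1 was higher than all but control replicate 2, so the groups overlapped. The log2 difference was -1.05 ± 0.42 against soluble TNF (adjusted p = 0.199) and -0.93 ± 0.42 against control (adjusted p = 0.645). A second bright Ndufa3 probe set gave 1796 and 2107 on the same 2 tmTNF arrays, against 5623 to 10124 on the other 10.

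Ndufa6, an accessory subunit at the base of the matrix arm, ran the other way. It gave 5093, 5640.4, 5235 and 4101 on tmTNF arrays, 3599, 2939, 3469 and 3435 on soluble TNF arrays and 5898, 5363, 6789 and 3592 on control arrays. All soluble TNF arrays lay below all tmTNF arrays, and control replicate 4 lay among the soluble TNF arrays. The log2 difference was 0.57 ± 0.20 for tmTNF against soluble TNF (adjusted p = 0.153) and -0.65 ± 0.20 for soluble TNF against control (adjusted p = 0.27).

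Of the 7 core subunits that carry the electrons, 6 were on the array with their own symbol, and 5 of these were lower in tmTNF than in soluble TNF (median -0.30) and 6 lower in tmTNF than in control (median -0.13). Ndufv1, the subunit that binds NADH, gave 3894, 3597, 2543 and 3973 on tmTNF arrays and 4859.9, 4084, 6860.4 and 4468 on control arrays, which did not overlap, with a log2 difference of -0.52 ± 0.24 (adjusted p = 0.667). Ndufv3, an accessory subunit of the NADH-binding module, gave 5469.6, 4879, 6016 and 4849.7 on tmTNF arrays and differed by -0.51 ± 0.27 between soluble TNF and control (adjusted p = 0.464), with 3789, 5269, 4861 and 3869 on soluble TNF arrays and 9808, 7047, 6648 and 3345 on control arrays. Control replicate 4 was lower there than every soluble TNF array, so these groups overlapped. Ndufb1, a small membrane-arm subunit, gave 308, 309.8, 190.0 and 519 on tmTNF arrays, 361, 355, 335 and 472 on soluble TNF arrays and 133, 276, 294 and 425 on control arrays (soluble TNF minus control log2 0.50 ± 0.35, adjusted p = 0.575). In Ndufb7, a membrane-arm subunit, the tmTNF arrays at 5084, 3844, 4783 and 5772 lay below the soluble TNF arrays at 7147, 7495, 6313 and 6704 (log2 -0.52 ± 0.17, adjusted p = 0.137). By count, 26 of the 34 complex I genes were lower in tmTNF than in soluble TNF (median -0.22), 30 were lower in tmTNF than in control (median -0.10), and 20 were higher in soluble TNF than in control (median 0.06).

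Ndufa4 was grouped with complex I by its symbol, although its protein is now placed in complex IV. It gave 3170.3, 3199.5, 2787 and 4402 on tmTNF arrays, 3346, 3617, 3113 and 2858 on soluble TNF arrays and 2650.0, 3845, 4016 and 2388 on control arrays, and all 3 groups overlapped. The paralogue Ndufa4l2, known from hypoxic cells, did not pass the filter, with 21.7, 60.8, 10.5 and 5.67 on tmTNF arrays, 55.4, 23.3, 12.6 and 35.6 on soluble TNF arrays and 50.4, 10.3, 56.5 and 13.8 on control arrays. The single-symbol probe set of Ndufb4 stayed at or under 46.6. A bright probe set shared with the copies Ndufb4b and Ndufb4c, which the symbol rule leaves out, gave 7504, 3076, 4654 and 2596 on tmTNF arrays, 6528, 7140, 5861 and 7103 on soluble TNF arrays, and 5873, 6189, 5249 and 6822 on control arrays. There, too, tmTNF replicates 2 and 4 were lowest.

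Complex II, which also serves the citric acid cycle, had 0 genes called by limma and 0 at an unadjusted p under 0.05 in the 3 comparisons. Sdha, the flavoprotein that oxidises succinate, gave 5192, 3638, 4628 and 4704 on tmTNF arrays, 4932, 5112, 5542 and 4759.6 on soluble TNF arrays and 5376, 5106, 3302 and 5549 on control arrays. Sdhb, the iron-sulfur subunit, gave 5897, 7148, 7816 and 8722 on tmTNF arrays, 5353, 6456, 5674 and 5184 on soluble TNF arrays and 10075, 6523, 4199 and 4801 on control arrays. In both genes the groups overlapped, and control arrays spread most widely. The membrane anchor Sdhc gave 3946, 4056, 3649 and 3617 on tmTNF arrays, 3670.2, 4048, 4450.3 and 3789 on soluble TNF arrays and 5057, 3726, 3730.0 and 3581 on control arrays. The other anchor, Sdhd, gave 3311, 2366, 2471 and 3183 on tmTNF arrays, 2029, 3717, 2972 and 2815 on soluble TNF arrays and 2291, 2852, 2467 and 3002 on control arrays. In both anchors the groups overlapped. Fitted log2 differences of the 4 genes ran from -0.17 to 0.37 between tmTNF and soluble TNF, with Sdhb the highest at 0.37 ± 0.24 (adjusted p = 0.414).

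In complex III, the 2 genes with the smallest p-values were Uqcrfs1, the Rieske iron-sulfur protein, and Uqcrc1, a core subunit of the matrix side. Uqcrfs1 gave 4986, 4285, 4363 and 4338 on tmTNF arrays, 6901, 6364, 7272 and 5679 on soluble TNF arrays and 5337, 5109.6, 3949.8 and 5584 on control arrays. All soluble TNF arrays lay above all others, by a log2 difference of -0.54 ± 0.15 for tmTNF minus soluble TNF (adjusted p = 0.096) and of 0.40 ± 0.15 for soluble TNF minus control (adjusted p = 0.327). Uqcrc1 gave 6122, 5627, 4949.8 and 7626 on tmTNF arrays, 9509, 8862, 7782 and 8532 on soluble TNF arrays and 6073, 6268, 6057 and 6837 on control arrays. Again the 4 soluble TNF arrays were the highest of the 12, with log2 differences of -0.53 ± 0.15 for tmTNF minus soluble TNF (adjusted p = 0.0967) and 0.46 ± 0.15 for soluble TNF minus control (adjusted p = 0.28). None of these differences passed the threshold.

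Cyc1, the heme protein cytochrome c1, gave 5055, 6578, 4227 and 7903 on tmTNF arrays, 10900, 6323, 6255 and 9193 on soluble TNF arrays and 4863, 6188, 7306 and 9477 on control arrays, with overlap of all groups. Uqcrb, which helps bind ubiquinone, stayed between 24597 and 31031 on all 12 arrays and differed by -0.09 ± 0.09 between tmTNF and soluble TNF. The small subunits varied more. Uqcr10 gave 8721, 3329, 4098 and 2783 on tmTNF arrays, 4998, 5375, 5854 and 5544 on soluble TNF arrays and 4366, 7057, 5894 and 6211 on control arrays, so tmTNF held both the highest and the lowest array. Uqcrh, the hinge protein, was lowest on control replicate 3, at 1991, against 4329 to 8963 on the other 11 arrays. Of the 9 complex III genes, 8 were lower in tmTNF than in soluble TNF (median -0.35) and 7 higher in soluble TNF than in control (median 0.23).

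**Figure D3:**
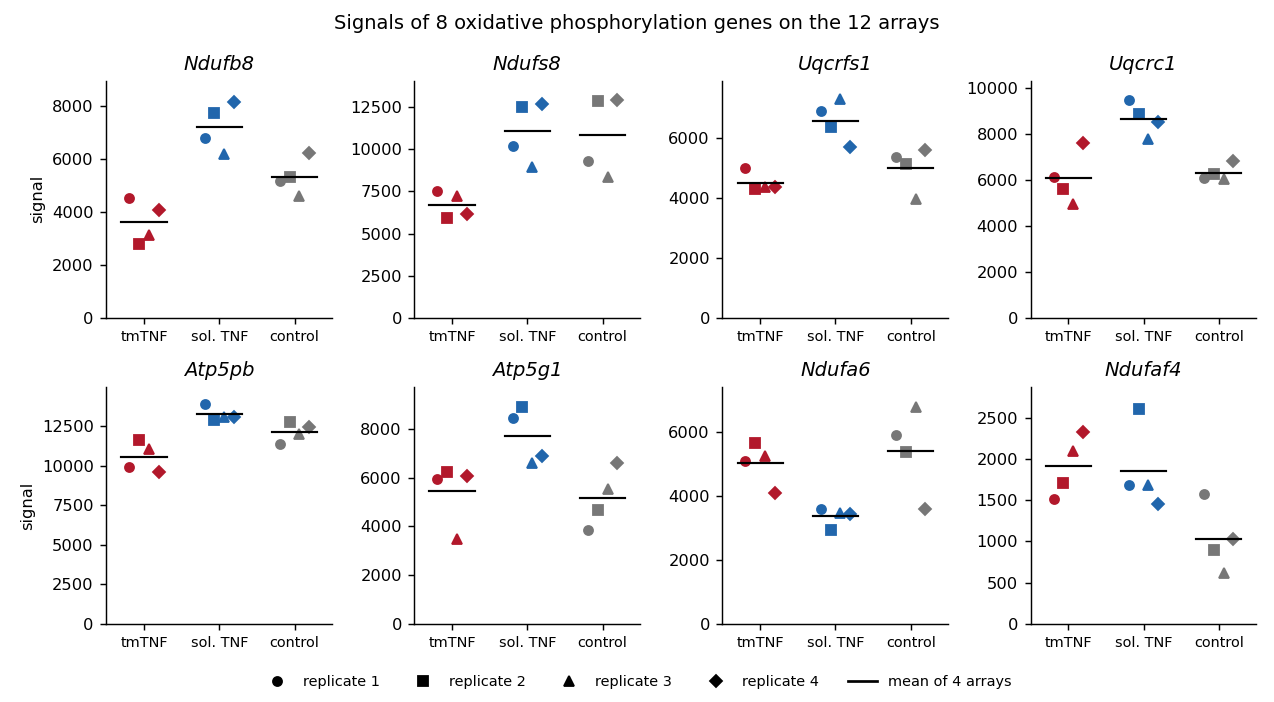
Signals (linear axis from 0) of 8 genes on every array, for tmTNF, soluble TNF (sol. TNF) and control; marker shapes are the replicates and bars the means of 4 arrays. For Ndufb8 and Ndufs8 all 4 tmTNF arrays lie lowest, at 2779 to 4505 and 5925 to 7532, and for Uqcrfs1 and Uqcrc1 all 4 soluble TNF arrays lie highest, at 5679 to 7272 and 7782 to 9509.

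Complex IV has several subunits with paired tissue isoforms, and none of its 11 tested genes passed the test in any comparison. Cox4i1, the widespread form of subunit 4, gave 15945, 11738, 14377 and 13054 on tmTNF arrays, 14298, 16252, 13963 and 15483 on soluble TNF arrays and 15684, 19562, 14458 and 13227 on control arrays, with overlap of all groups. The lung form Cox4i2 gave 51.4, 52.9, 29.2 and 80.5 on tmTNF arrays, 21.8, 15.8, 69.7 and 5.02 on soluble TNF arrays and 72.4, 29.3, 40.0 and 80.5 on control arrays. The heart and muscle form Cox7a1 gave 38.7, 132, 51.0 and 38.3 on tmTNF arrays, 42.7, 82.0, 46.9 and 30.4 on soluble TNF arrays and 86.3, 78.6, 65.3 and 42.9 on control arrays. The testis form Cox6b2 gave 6.07, 6.93, 4.57 and 13.8 on tmTNF arrays, 40.4, 9.29, 3.11 and 20.1 on soluble TNF arrays and 39.6, 37.8, 62.5 and 23.0 on control arrays. None of these 3, nor the testis form Cox7b2 at or under 29.9, passed the filter. A further testis form, Cox8c, did, with 307, 218, 190.0 and 168 on tmTNF arrays, 162, 246, 133 and 204 on soluble TNF arrays and 241, 156, 204 and 196 on control arrays, and its groups overlapped.

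The common counterparts were measured on every array. Cox6a1 gave 26283, 19563, 23072 and 23793 on tmTNF arrays, 23807, 26157, 21871 and 22564 on soluble TNF arrays and 20457, 27541, 22607 and 22877 on control arrays, and Cox6b1 gave 18797, 12190, 12916 and 13168 on tmTNF arrays, 17709, 19038, 16003 and 16656 on soluble TNF arrays and 12705, 18563, 13134 and 14638 on control arrays. Cox7a2 gave 20179, 14019, 16733 and 16155 on tmTNF arrays, 19207, 22328, 19732 and 20066 on soluble TNF arrays and 20540, 22820, 12811 and 18022 on control arrays, and Cox8a gave 6353, 5437, 4785 and 5075 on tmTNF arrays, 6726, 7388, 5879.7 and 8052 on soluble TNF arrays and 4535, 7247, 7796 and 6715 on control arrays. In all 4 genes the groups overlapped, and their log2 differences ran from -0.37 to -0.03 between tmTNF and soluble TNF, with adjusted p-values of 0.288 or more. Cox7a2l, which helps join complexes III and IV, gave 7374, 7468, 11808 and 5342 on tmTNF arrays, 5962, 6883, 6533 and 6079 on soluble TNF arrays and 10981, 13499, 7439 and 5379 on control arrays. Its tmTNF and control arrays spread around the narrow soluble TNF arrays. Cox7c, a widespread subunit, did not pass the filter, with its brighter probe set at 39.2 to 129.7.

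The muscle forms Cox6a2 and Cox8b reached high signals on few arrays. Cox6a2 gave 183, 1310.4, 212 and 148 on tmTNF arrays, 132, 99.7, 15.2 and 78.4 on soluble TNF arrays and 1081, 46.0, 244 and 72.1 on control arrays. Both tmTNF replicate 2 and control replicate 1 stood far above the rest, and the tmTNF arrays lay above all soluble TNF arrays (log2 1.90 ± 0.91, adjusted p = 0.268). Cox6a2 passed the filter only through its tmTNF arrays, and the nearest values were 148 in tmTNF and 132 in soluble TNF. Cox8b, which did not pass the filter, gave 81.1, 3.97, 354 and 29.4 on tmTNF arrays, 6.48, 77.3, 83.8 and 8.74 on soluble TNF arrays and 19.6, 1233, 12.9 and 3.31 on control arrays, so control replicate 2 and tmTNF replicate 3 stood out. Of 8 listed skeletal and cardiac muscle markers, at most 1 reached a signal of 100 on any array, and the list summed to 338 to 5063 on tmTNF arrays, 324 to 1210.1 on soluble TNF arrays and 316 to 918 on control arrays. The member behind the high sums was Tnnt2, a troponin of heart muscle, at 4872 on tmTNF replicate 2 and 3027 on tmTNF replicate 4, and its part in the Cox6a2 values was not tested. Of the 11 complex IV genes, 8 were lower in tmTNF than in soluble TNF (median -0.16).

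Complex V had the most even direction of the 5 complexes between the exposures, with all 17 genes lower in tmTNF than in soluble TNF on the main scaling and on 3 others. Over all genes, 44.1% were lower in tmTNF than in soluble TNF. The log2 differences of the 17 ran from -0.56 to -0.12 (median -0.33). In limma, 7 of the 17 were lower at an unadjusted p under 0.05, against 7.49% of all genes, and 0 passed adjustment. Against control, 14 of the 17 were lower in tmTNF (median -0.12) and 15 higher in soluble TNF (median 0.17). Of all genes, 46.8% were lower in tmTNF than in control and 45.8% higher in soluble TNF than in control. With the mean of a gene's probe sets in place of the brightest, 15 of the 17 were lower. Without tmTNF replicates 2 and 4 and control replicate 3, 13 of the 17 were lower in tmTNF than in soluble TNF (median -0.28). Most complex V genes lay above the band of the 682 genes (mean log2 12.12 to 13.28), among them Atp5b (14.10), Atp5g3 (13.97) and Atp5h (13.80). No genes of their own level were compared, so the shift may not be particular to complex V.

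Atp5pb, the b subunit of the peripheral stalk, gave 9891, 11606, 11069 and 9622 on tmTNF arrays, 13899, 12906, 13076 and 13076 on soluble TNF arrays and 11363, 12742, 11988 and 12459 on control arrays. The tmTNF and soluble TNF arrays did not overlap, with a small log2 difference of -0.33 ± 0.10 (adjusted p = 0.126). A second Atp5pb probe set gave 5957, 6436, 5939 and 6099 on tmTNF arrays, against 8326, 7476, 7606 and 7850 on soluble TNF arrays (log2 -0.35 ± 0.11). Atp5o, the subunit that ties the stalk to the catalytic head, differed by -0.56 ± 0.19 (adjusted p = 0.147), with 11177, 6174, 9029 and 8747 on tmTNF arrays and 14602, 13005, 9743 and 13906 on soluble TNF arrays. There tmTNF replicate 1 lay above soluble TNF replicate 3. In the catalytic head, Atp5b, the beta subunit, gave 15907, 16771, 13164 and 19299 on tmTNF arrays, 20808, 21702, 18810 and 20223 on soluble TNF arrays and 15727, 17234, 15446 and 17857 on control arrays. All soluble TNF arrays lay above all control arrays, with a log2 difference of 0.30 ± 0.12 (adjusted p = 0.351). Atp5a1, the alpha subunit, differed by -0.32 ± 0.15 between tmTNF and soluble TNF (adjusted p = 0.268).

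Atp5g1, Atp5g2 and Atp5g3 encode the same c-ring protein with different import sequences. Atp5g1 gave 5948, 6218, 3471 and 6076 on tmTNF arrays, 8460.1, 8890.0, 6604 and 6870.3 on soluble TNF arrays and 3868, 4678, 5525 and 6589 on control arrays. Its soluble TNF arrays were the 4 highest, with a log2 difference of -0.53 ± 0.23 for tmTNF minus soluble TNF (adjusted p = 0.222) and 0.59 ± 0.23 for soluble TNF minus control (adjusted p = 0.327). Atp5g2 gave 10964, 8270.4, 8619 and 9391 on tmTNF arrays, 11973, 11712, 11382 and 12115 on soluble TNF arrays and 8914, 11896, 10788 and 13345 on control arrays. The tmTNF arrays lay below all soluble TNF arrays, and controls spanned both (log2 -0.35 ± 0.14, adjusted p = 0.203). Atp5g3 gave 15486, 12849, 12711 and 17075 on tmTNF arrays, 20972, 17494, 14877 and 20159 on soluble TNF arrays and 12220, 18963, 13129 and 19678 on control arrays. These groups overlapped (tmTNF minus soluble TNF log2 -0.34 ± 0.18, adjusted p = 0.326).

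Some small subunits of complex V shared the uneven tmTNF replicates of Ndufa3. Atp5md, a small membrane subunit, gave 12634, 2777, 4574 and 2399 on tmTNF arrays, 4462, 5189.6, 3705 and 8036 on soluble TNF arrays and 5441, 7597, 6214 and 7952 on control arrays, and tmTNF held both the highest and the lowest array. Atp5e, the epsilon subunit of the rotor, gave 5917, 2904, 4743 and 2918 on tmTNF arrays, against 3419 to 6539 on the other 8 arrays. Atp5j, coupling factor 6 of the stalk, gave 11998, 5737, 7680.4 and 6602 on tmTNF arrays, against 8180 to 12174 on the other 8. In each of these genes tmTNF replicates 2 and 4 were lowest of the 12 arrays and replicate 1 was highest of tmTNF. On the same 2 arrays the 7 mesothelial markers summed to 17873 and 11814, with 3 of the 7 at a signal of 100. That sum was 15717 on control replicate 3, and 4277 and 4543 on soluble TNF replicates 1 and 4. The part of these markers here was not tested.

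**Figure D4:**
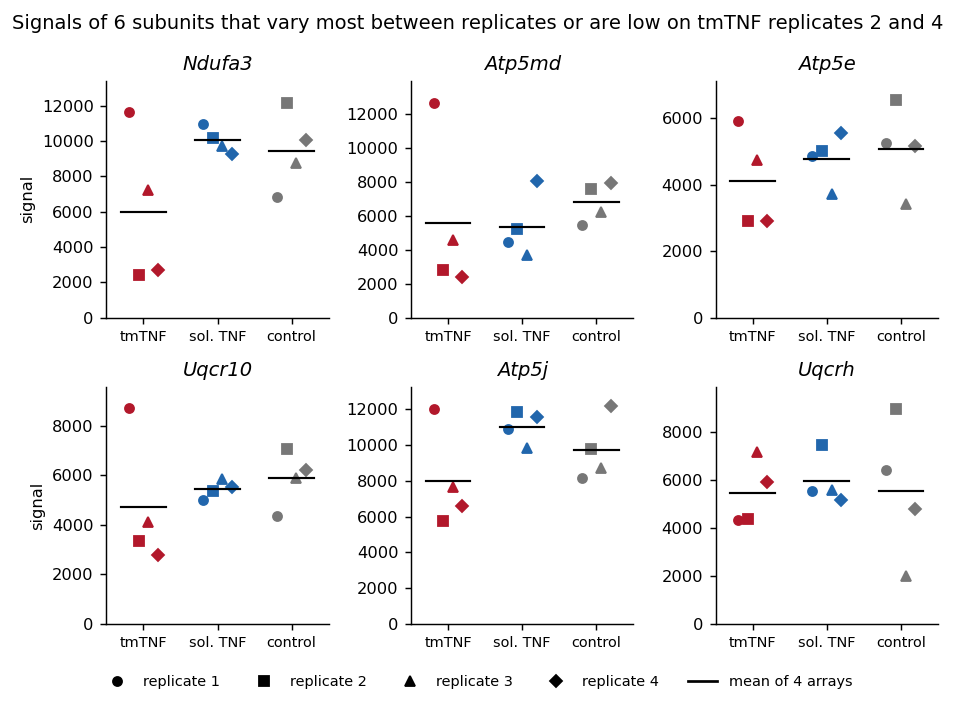
Signals (linear axis from 0) of 6 subunits on every array, for tmTNF, soluble TNF (sol. TNF) and control; marker shapes are the replicates and bars the means of 4 arrays. For Ndufa3, Atp5md, Atp5e, Uqcr10 and Atp5j, tmTNF replicates 2 and 4 are the 2 lowest of the 12 arrays, while Uqcrh is lowest on control replicate 3 at 1991.

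Among the 8 complex I assembly factors, Ndufaf4 had the largest difference from control in both exposures. It gave 1521, 1715, 2104 and 2328 on tmTNF arrays, 1683, 2612, 1689 and 1460.4 on soluble TNF arrays and 1581, 901, 617 and 1034 on control arrays. Control replicate 1 reached the level of the treated arrays, so the groups overlapped. The log2 difference was 0.94 ± 0.29 in tmTNF (adjusted p = 0.346) and 0.88 ± 0.29 in soluble TNF (adjusted p = 0.28), each against the same 4 controls. A second, dimmer Ndufaf4 probe set, at 308 to 776, gave 0.20 ± 0.24 in tmTNF and 0.45 ± 0.24 in soluble TNF. Ndufaf6 gave 564, 730.2, 734 and 782 on tmTNF arrays, 582, 846, 546 and 482 on soluble TNF arrays and 817, 372, 412 and 515 on control arrays (tmTNF minus control log2 0.45 ± 0.27, adjusted p = 0.781). The 8 factors split 4 lower and 4 higher between tmTNF and soluble TNF.

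Related mitochondrial and metabolic gene lists held 0 genes called by limma at an adjusted p under 0.05 in any comparison. At an unadjusted p under 0.05 between tmTNF and soluble TNF, where 7.49% of all genes were lower and 12.4% higher, there were 2 lower and 1 higher of 35 further assembly factors, 3 lower and 1 higher of 21 electron carriers and ATP-handling genes, and 3 lower and 0 higher of 21 genes of mitochondrial biogenesis. The citric acid cycle had 4 lower and 0 higher of 18 genes (median -0.16), mitochondrial defence 3 lower and 1 higher of 15 (median -0.12), and glycolysis 0 lower and 1 higher of 17 (median 0.15).

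The genes named here have the smallest p of their list, so a separation of their groups follows from the choice. Gabpb1, the partner of GABPA in the factor that binds the ETS word above, gave 478, 846, 662 and 1019 on tmTNF arrays, against 1658, 2133, 1837 and 1179.8 on soluble TNF arrays (log2 -1.18 ± 0.31, adjusted p = 0.0784). Gpx1, a glutathione peroxidase, differed by -0.53 ± 0.14 (adjusted p = 0.0895), and Sucla2, a subunit of succinyl-CoA synthetase, by -0.47 ± 0.13 (adjusted p = 0.0867). Vdac1, the main channel of the outer membrane, differed by -0.59 ± 0.18 (adjusted p = 0.121), and Ldhb, a lactate dehydrogenase subunit, by 1.04 ± 0.36 (adjusted p = 0.145). Uqcc2, an assembly factor of complex III, differed by -0.54 ± 0.18 between tmTNF and control (adjusted p = 0.43), with 5249, 4119, 3956 and 4266 on tmTNF arrays and 6569, 5863, 6317 and 6816 on control arrays.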

How the data were processed

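Expression was measured on 12 Affymetrix arrays of 45101 probe sets, 4 per group. The deposited intensity values are MAS5 signals, per the submitters' processing notes, with the version not given in the sources used here. In the deposited files each array had a 2% trimmed mean of about 1000. Leaving out 64 control probe sets, the arrays were brought to a common trimmed mean of 500. A probe set needed a signal of 100 on 4 or more arrays, and log2(signal + 16) was taken, so fold changes of dim genes are understated. Of probe sets with a single symbol, the one with the highest mean represented each gene, and 932 probe sets with several symbols were left out. Genes were named from the platform annotation.

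All 3 groups entered 1 model in limma 3.58.1 (R 4.3.3), by lmFit and by eBayes with its trend option. Tests were two-sided, and p-values were adjusted by Benjamini-Hochberg over 10269 genes. The fit was tested on simulated data first. Medians over gene lists carry no test. Arrays have no read depth, and their number limits the precision.

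The members and lists were chosen with earlier results of these data known. Array values were given for genes called, the 3 largest differences each way per comparison, an unadjusted p under 0.01, paired isoforms, complex II and Cyc1, and the smallest p per list. Other genes named were chosen after their values were seen. Scaling, pseudocount, filter, choice of probe set, fit and single arrays were varied.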

Additional observations from a re-analysis of the deposited data

Results flagged for a closer look

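Ndufb8 differed between the exposures by a log2 difference of -1.01 for tmTNF minus soluble TNF (limma, adjusted p = 0.0248), with 4 of 4 tmTNF arrays below all 4 soluble TNF arrays.

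Single arrays stood apart from the other 3 of their group in 9 of 114 groups of 4 arrays examined. Chance alone marks about 1 in 20 groups that are unselected and independent. The groups examined came from named genes, some named for their values in these data, and from gene sets that share genes. The 9 therefore cannot be set against that rate. Among tmTNF arrays, replicate 1 was high for Uqcrfs1 (4986) and for the median log2 level of all subunits (12.75). Replicate 2 of tmTNF was high for Cox6a2 (1310.4). Replicate 3 of tmTNF was low for Atp5g1 (3471) and for the median log2 level of the complex I core subunits (11.90). Among control arrays, replicate 1 was high for Sdhc (5057), replicate 2 was high for Cox8b (1233) and for the median log2 level of complex III (12.79), and replicate 3 was low for Sdha (3302).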

How the results depend on the processing

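With limma, the count of genes lower in tmTNF than in soluble TNF was 1 in the main setting, 4 with arrays scaled to the same median (Atp5o, Ndufb8, Ndufs8 and Uqcrfs1), 11 with array weights, 2 with only these groups in the fit (Ndufb8 and Ndufs8) and 0 with the mean of a gene's probe sets. Over all genes, the calls lower in the same settings were 27, 172, 463, 129 and 18. For the oxidative phosphorylation genes it was 0 without control replicate 3 and tmTNF replicates 2 and 4 together, a choice made after seeing the data. Leaving out each array in turn gave 0 to 1. Scaling to the same median moved the median log2 difference to -0.44 for tmTNF minus soluble TNF and to -0.23 for tmTNF minus control. The medians over single arrays left out ran from -0.30 to -0.17, from -0.17 to -0.06 (tmTNF minus control) and from 0.06 to 0.14 (soluble TNF minus control). The cause of these changes was not tested.

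Of 2013 values of the named genes under the 24 alternatives, 7 lost and 9 gained a call, 15 moved by more than the replicate spread, and 90 changed sign without a call on either side. Of 46 genes with several kept probe sets, all sets shared the sign of tmTNF minus soluble TNF in 37. No paired analysis was possible because the labels give no pairing of arrays across groups. Probe sets near 100 carry little signal over background, and probes shared with related transcripts can mix their signals.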

Other observations

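Genes that regulate or serve the respiratory chain are given here as values, chosen after they were seen. Gabpa, the DNA-binding partner of Gabpb1, gave 1056, 1158, 1187 and 875 on tmTNF arrays, 1796, 1356, 1264 and 1436 on soluble TNF arrays and 1184, 1379.6, 1193 and 1672 on control arrays. The tmTNF arrays lay below the soluble TNF arrays, as for Gabpb1, with a log2 difference of -0.44 ± 0.19 that did not pass (limma, adjusted p = 0.23). Nrf1, the factor of the NRF1 word, differed by -0.03 ± 0.21 and Yy1 by -0.08 ± 0.16. Ppargc1a, a coactivator of mitochondrial biogenesis, did not pass the filter but gave 82.8, 679.9, 84.3 and 226 on tmTNF arrays, 6.58, 41.8, 48.0 and 5.52 on soluble TNF arrays and 46.1, 24.7, 35.0 and 32.0 on control arrays, so replicates 2 and 4 of tmTNF were alone above 100.

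Slc25a4, which exchanges ADP for ATP across the inner membrane, gave 16249, 9333, 9184 and 14686 on tmTNF arrays, 17651, 17991, 14928 and 15198 on soluble TNF arrays and 10939, 13121, 14028 and 13727 on control arrays. Its log2 difference was -0.45 ± 0.19 between tmTNF and soluble TNF (adjusted p = 0.215). Sod2, the superoxide dismutase of the mitochondrial matrix, gave 3173, 4252, 4078 and 3223 on tmTNF arrays, 4324, 4553, 4182 and 3754 on soluble TNF arrays and 3597, 3821, 2744 and 3361 on control arrays, and soluble TNF differed from control by 0.32 ± 0.17 (adjusted p = 0.447).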
